A study of Mus musculus with 6 samples.

Results

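The genes described here are 165 protein-coding genes whose RNA was low in early thymus cells of mice deficient in RBPJ and higher again after RBPJ was induced. They were chosen by their values in all 3 groups of the study, given as CPM, a gene's count for every 1000000 counts in its library. Both Control libraries had to reach 5 CPM, both uninduced libraries had to stay at or under 33.3% of the lower Control, and both induced libraries had to reach at least 50% of the lower Control. Of 21620 protein-coding genes in the files, 9135 met the first condition and 174 met all of them before 9 were left out by name. Those 9 were Notch1, Notch3, Tox, Lck, Fasl, Sema3d, Gimap5, Gimap6 and Cd33. Cd33 was left out only because its symbol starts like those of the Cd3 chains.

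RBPJ is the DNA-binding protein of the canonical Notch pathway. A ligand on a neighbouring cell releases the intracellular part of a Notch receptor, which joins RBPJ and a Mastermind coactivator on DNA and switches target genes on; without Notch, RBPJ can hold corepressors there. In the thymus, Notch1 signalling directs incoming progenitors into the T lineage.

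The cells were DN1a/b cells, the earliest thymocyte subset, FACS-sorted from the thymus of C57BL/6 mice, with 2 bulk libraries in each group. Control mice kept RBPJ. RBPJ uninduced mice were deficient in it and had not been induced. RBPJ 6 days induced mice were otherwise deficient and received doxycycline, as an intraperitoneal injection (2 mg/ml) followed by drinking water that held 1 mg/ml. The driver of the deletion, the construct that carries the inducible gene and the ages are not named in the labels. It is also not given in the sources used here if Control or uninduced mice received doxycycline, so effects of RBPJ and of doxycycline cannot be told apart. The labels do not tie the 2 libraries of a group to different mice, so p-values below speak of the spread among libraries, part of which may be technical. In bulk RNA, fewer cells of a type and less RNA per cell cannot be told apart.

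Rbpj was at 75.2 and 77.6 CPM in Control, 31.8 and 24.6 CPM in uninduced and 202 and 194 CPM in induced libraries, in the order that the labels give. Rbpj RNA was thus lower but present in the uninduced libraries; "without RBPJ" is used below for that group as labelled, and counts per gene do not show which part of the transcript was left. Kit, the stem cell factor receptor that marks the earliest thymocytes, was at 327 to 711 CPM in all 6 libraries. Cd44 was at 396 and 364 CPM in Control, 224 and 161 CPM in uninduced and 357 and 293 CPM in induced libraries. Il2ra, the CD25 chain of later stages, was at 30.7 and 16.9 CPM, 0.588 and 19.3 CPM, and 29.6 and 36.7 CPM. Total counts ran from 5098927 to 12932928. Markers of other cells moved with the groups: the summed level of 14 granulocyte and monocyte genes was 553 to 606 CPM in Control, 2805 to 5046 in uninduced and 813 to 1636 in induced libraries, and that of 11 mast cell and basophil genes was 78.1 to 87.5, 625 to 1248 and 354 to 444 CPM. The 11 erythroid and megakaryocyte genes summed to 23.4 to 41.6, 356 to 525 and 169 to 228 CPM in the same order. Of each of these 3 lists, 0 to 3 genes were at 0 in any library. Later thymocyte markers (13 genes) summed to 884 CPM in Control replicate 2 and 41.2 to 134 CPM elsewhere, and B-cell markers (12 genes) to 992 CPM in uninduced replicate 2, 345 CPM in Control replicate 2 and 44.2 to 109 CPM elsewhere. The part of these cells in the results was not tested.

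The 165 genes together took 9168 and 9196 CPM in the Control libraries, 1607 and 1392 CPM in the uninduced libraries and 6699 and 6091 CPM in the induced libraries. The median gene was at 26.0 CPM in Control, 3.65 CPM without RBPJ and 19.9 CPM after induction. Set against its own Control mean, the median gene kept 14.4% without RBPJ, with a range from 1.53% to 30.8%, and stood at 73.3% after induction, with a range from 24.8% to 192%. The ratio of Control to uninduced means was 3.24 to 65.6, with a median of 6.94, and that of induced to uninduced means was 1.95 to 33.1, with a median of 5.23. These values describe the choice and are no test of it. The box plot by library shows how close the libraries of a group lay.

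**Figure D1:**
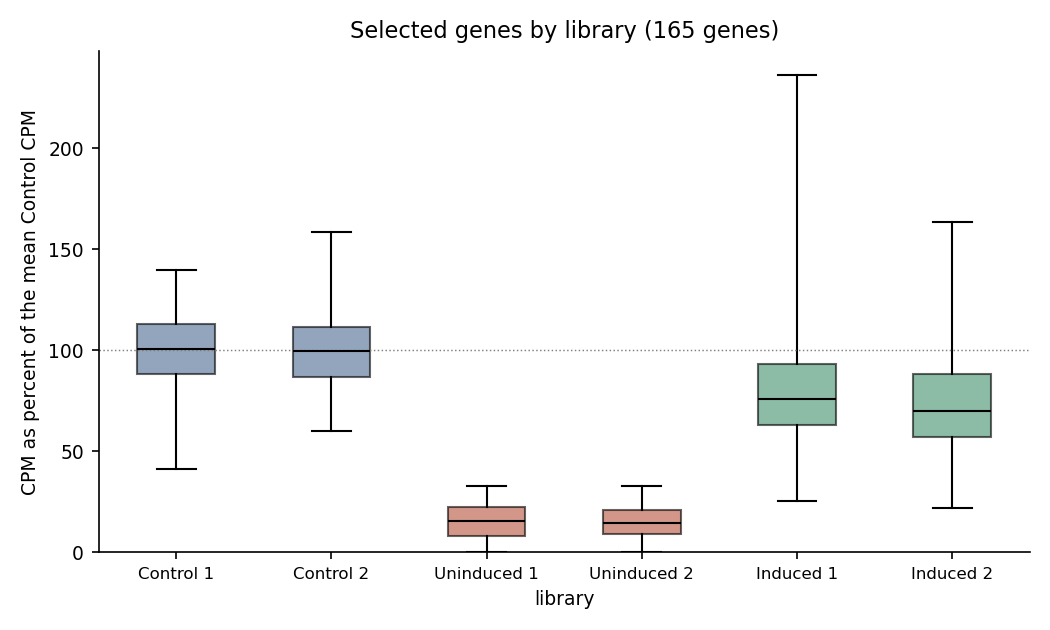
CPM of the 165 selected genes in each of the 6 libraries, as percent of each gene's mean Control CPM. Boxes span the quartiles with the median as a line, whiskers reach the lowest and highest gene, and the dotted line marks 100%. Medians were 15.4% and 14.8% in the uninduced libraries and 76.1% and 70.1% in the induced libraries.

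By edgeR's quasi-likelihood test with Benjamini-Hochberg adjustment over 18174 genes, 138 of the 165 were called lower in uninduced than in Control libraries, where 2.93% of all genes tested were, and 88 were called higher in induced than in uninduced libraries, where 1.55% of all genes were. Nothing is read from these counts, because the same contrasts chose the genes. Between induced and Control libraries edgeR called 0 of the 165 higher (0.187% of all genes tested) and 0 lower (0.0% of all), with 1 and 27 at an unadjusted p under 0.05 (3.63% and 1.55% of all), and DESeq2 called 0 higher and 4 lower (1.12% and 0.328% of all). Without uninduced replicate 1 edgeR's lower count was 8 (0.338% of all), and without uninduced replicate 2 it was 6 (0.305%). The rule set the induced against the Control libraries too, so these counts are a description. The count called higher after induction than before was 141 without uninduced replicate 2 (4.53% of all).

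Most of the genes stayed under the Control range after induction. Both induced libraries were below both Control libraries for 106 genes, where 24.5% of the 9135 protein-coding genes at 5 CPM or more in Control were, both were above for 9, where 20.3% were, and the groups overlapped for 50. With TMM-scaled totals, which correct for a few very abundant genes, the numbers were 95, 11 and 59 beside 18.0% and 26.4%. Since the rule set a floor for the induced libraries and a floor for the Control libraries, the counts are a description.

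**Figure D2:**
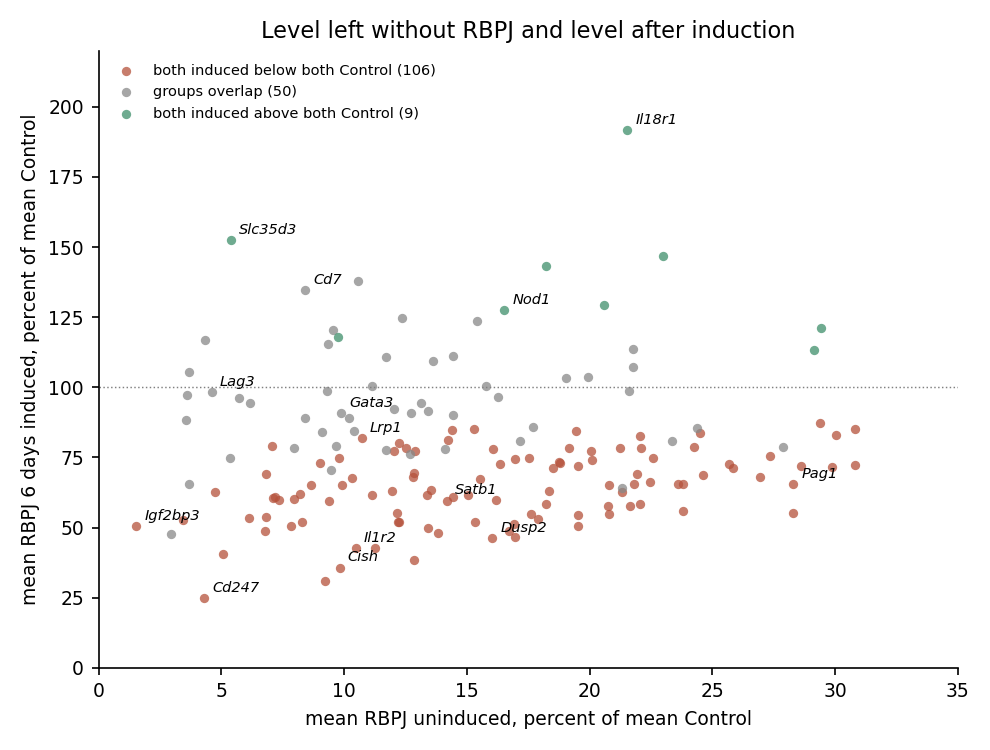
Mean RBPJ uninduced CPM (x axis) against mean RBPJ 6 days induced CPM (y axis), both as percent of mean Control CPM, with 1 point per selected gene. Colour gives the order of the induced and Control libraries: 106 genes below, 50 overlapping and 9 above. Il18r1 stood highest at 192% and Cd247 lowest at 24.8% after induction.

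For reading by function, 88 of the genes were placed in 14 roles from textbook knowledge, after the genes were known, and 77 in none. The plots of 12 examples and of all roles show their levels.

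**Figure D3:**
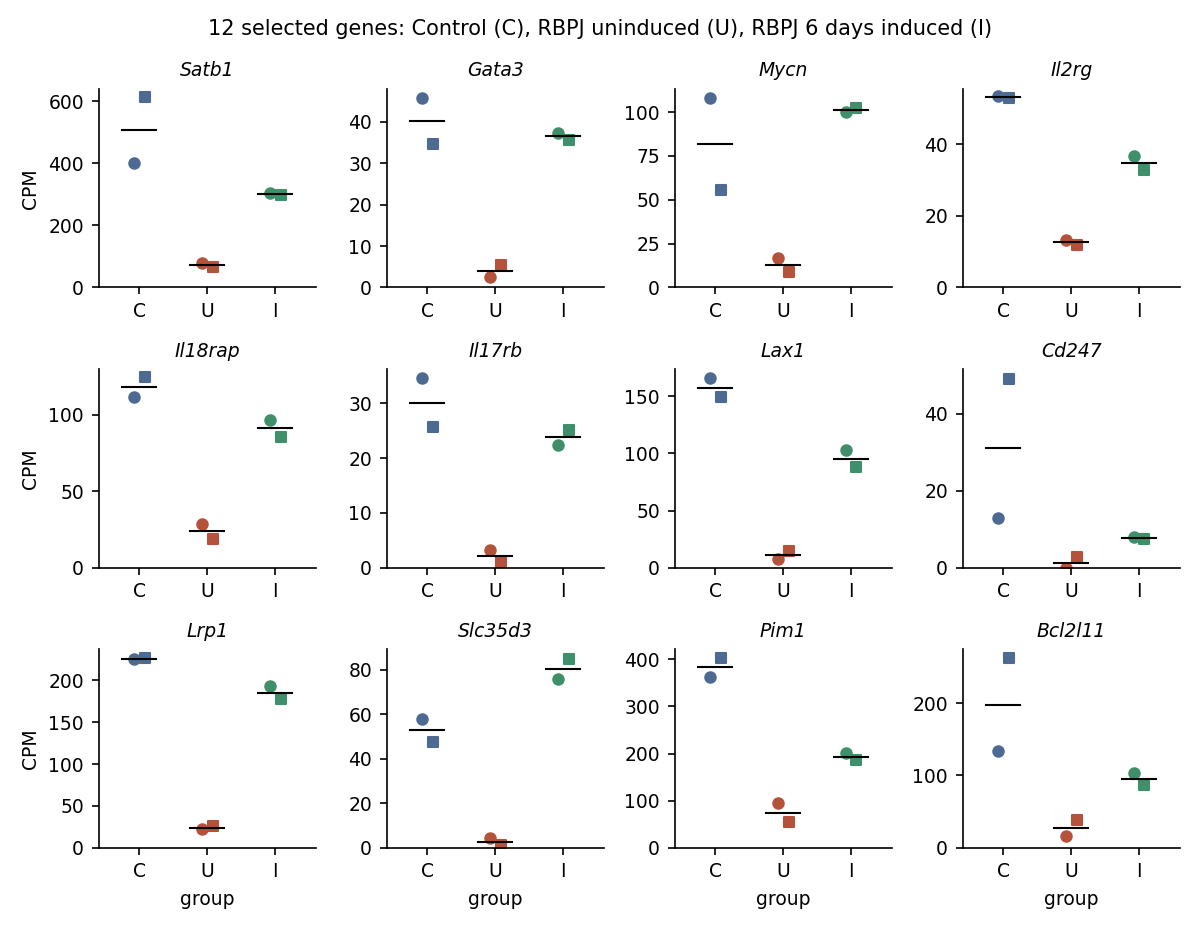
CPM of 12 selected genes in each library, with linear axes from 0. Circles are replicate 1, squares replicate 2, and bars the mean of the 2 libraries of Control (C), RBPJ uninduced (U) and RBPJ 6 days induced (I). Slc35d3 alone of these 12 has both induced libraries above both Control libraries, at 76.0 and 85.0 CPM.

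**Figure D4:**
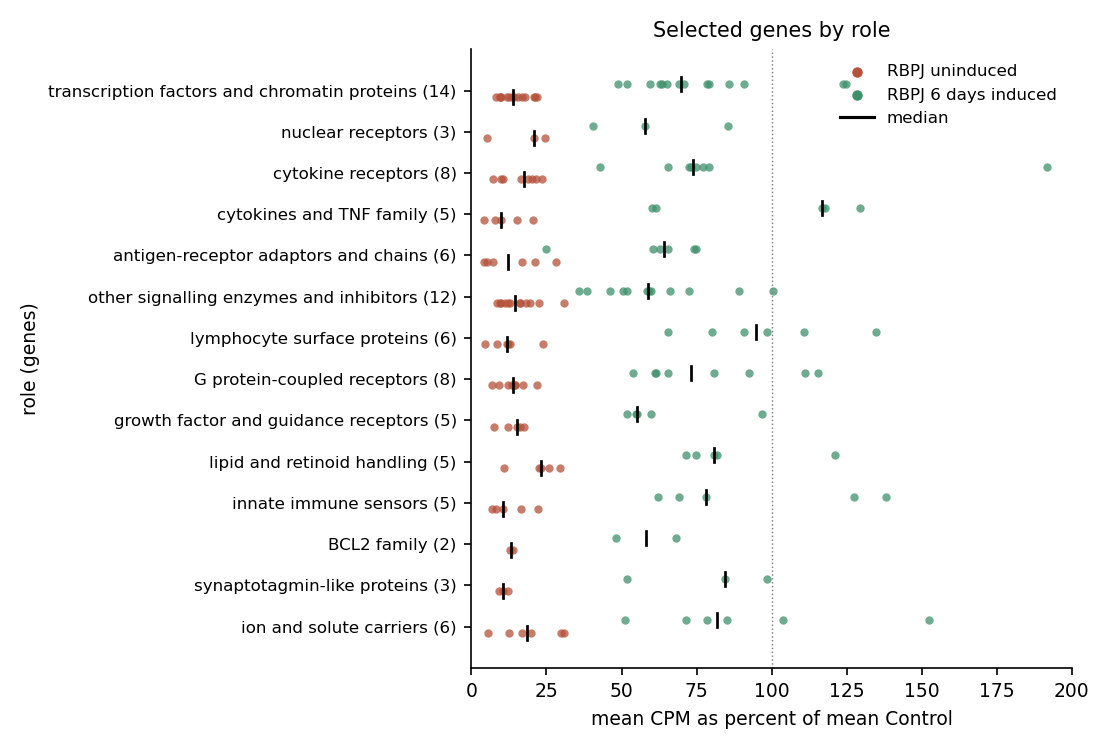
Selected genes by role, with the number of genes in parentheses. Each point is a gene's mean CPM as percent of its mean Control CPM, without RBPJ and after induction, black lines are medians, and the dotted line marks 100%. The median after induction was lowest for growth factor and guidance receptors, at 55.3%, and highest for cytokines and TNF family genes, at 117%.

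Among 14 transcription factors and chromatin proteins the median gene kept 13.9% of Control without RBPJ and reached 69.9% after induction. Satb1, a chromatin organizer needed for thymocyte development, was the most abundant of all 165 genes in Control, at 400.5 and 613 CPM, with 78.4 and 65.2 CPM without RBPJ and 305 and 299 CPM after induction. The induced libraries agreed closely with each other and lay under both Control libraries. Gata3, a zinc finger factor that T-cell progenitors cannot do without, was at 45.8 and 34.6 CPM in Control, 2.55 and 5.40 CPM without RBPJ and 37.4 and 35.6 CPM after induction, inside the Control range. Mycn, a relative of Myc, was at 108 and 55.5 CPM, then 16.7 and 8.61 CPM, then 100.2 and 103 CPM. Its induced libraries also lay between the Control libraries, which were themselves far apart.

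Tsc22d1, a leucine zipper protein induced by TGF-beta, was at 442 and 419 CPM in Control, 124 and 58.4 CPM without RBPJ and 350.4 and 326 CPM after induction. Bcl9l, a coactivator that joins beta-catenin, was at 251 and 194 CPM, 34.7 and 25.6 CPM, and 157 and 126 CPM. Tcf7l2, a beta-catenin partner of the family of Tcf7, was at 66.8 and 63.6 CPM, 17.1 and 10.1 CPM, and 45.4 and 39.8 CPM. All of these were under both Control libraries after induction. Mn1, a transcriptional cofactor, kept 8.29% of Control without RBPJ, and Egr3, an early growth response factor, had the lowest return of the 14 at 48.7%. Tshz3, a zinc finger homeobox protein, had the highest at 125%, from 7.73 and 6.97 CPM in Control to 7.48 and 10.9 CPM after induction, an overlap at low counts.

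Hoxa5 and Hoxa6, neighbours in the Hoxa cluster of homeobox genes, were both low in Control. Hoxa5 was at 9.36 and 9.04 CPM in Control, 1.37 and 0.824 CPM without RBPJ and 6.76 and 4.80 CPM after induction. Rara and Rxra, both nuclear receptors, form a retinoic acid receptor pair. Rara was at 55.8 and 63.8 CPM, 11.6 and 13.3 CPM, and 39.9 and 29.3 CPM, and Rxra at 23.9 and 21.1 CPM, 6.47 and 4.49 CPM, and 22.9 and 15.6 CPM. Dhrs3, a retinaldehyde reductase, was among the 9 genes above both Control libraries, at 24.5 and 23.9 CPM in Control, 7.85 and 6.41 CPM without RBPJ and 28.9 and 29.8 CPM after induction.

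Of 8 cytokine receptor genes, 7 stood under both Control libraries after induction and 1, Il18r1, above both. Of all 165 selected genes 106 and 9 did, and of the 9135 protein-coding genes 24.5% and 20.3%. Il2rg, the common gamma chain shared by the receptors for interleukin 7 and several other cytokines, was at 53.3 and 52.9 CPM in Control, 13.1 and 11.9 CPM without RBPJ and 36.7 and 32.8 CPM after induction. The libraries of each group lay within a few CPM of each other. Il17rb, a receptor chain for interleukin 25, was at 34.6 and 25.6 CPM, 3.14 and 1.10 CPM, and 22.5 and 25.2 CPM, which is 7.04% and then 79.2% of Control. Il17re, the interleukin 17C receptor, kept 9.78% and stood at 74.7%, and Il12rb1, a chain of the interleukin 12 and 23 receptors, kept 18.8% and stood at 73.1%.

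The other 4 lie in the interleukin 1 receptor cluster on chromosome 1 (mm10, plus strand, 40074079 to 40551705 from the start of Il1r2 to the end of Il18rap). Il1r1, the signalling interleukin 1 receptor, was at 140 and 117 CPM in Control, 37.9 and 4.21 CPM without RBPJ and 101 and 85.6 CPM after induction; the uninduced libraries were far apart. Il1r2, the decoy receptor, was at 19.1 and 31.6 CPM, 4.12 and 1.19 CPM, and 11.3 and 10.4 CPM, 42.7% of Control after induction. Il18rap, the accessory chain for interleukin 18, was at 112 and 124 CPM, 28.8 and 18.6 CPM, and 96.8 and 85.4 CPM. Il18r1, the ligand-binding chain, was at 30.4 and 19.0 CPM in Control, 4.31 and 6.32 CPM without RBPJ and 58.4 and 36.3 CPM after induction, 192% of its Control mean and the highest return of all 165 genes. It was also among the 3 genes nearest the uninduced limit, with the higher uninduced library at 33.2% of the lower Control.

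Between these genes lie 2 that were not selected. Il1rl2, the interleukin 36 receptor, ranged from 3.94 to 14.5 CPM over all 6 libraries, with overlapping groups. Il1rl1, which encodes the interleukin 33 receptor ST2 and belongs to the mast cell and basophil list, had the opposite pattern, at 1.01 and 2.64 CPM in Control, 77.3 and 64.9 CPM without RBPJ and 45.3 and 24.4 CPM after induction. Its edgeR log2 fold change over Control was 5.55 without RBPJ (SE 0.482; adjusted p = 0.000568) and 4.47 after induction (SE 0.469; adjusted p = 0.00741), and no alternative tried ended these calls. Its change between induced and uninduced libraries was -1.08 on the log2 scale (SE 0.370, adjusted p = 0.191 by edgeR), which did not pass. Il1rl1 ends at 40465415 and Il18r1 starts at 40465552 on the same strand, so the annotated genes do not overlap. How reads near that border were assigned was not tested.

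**Figure D5:**
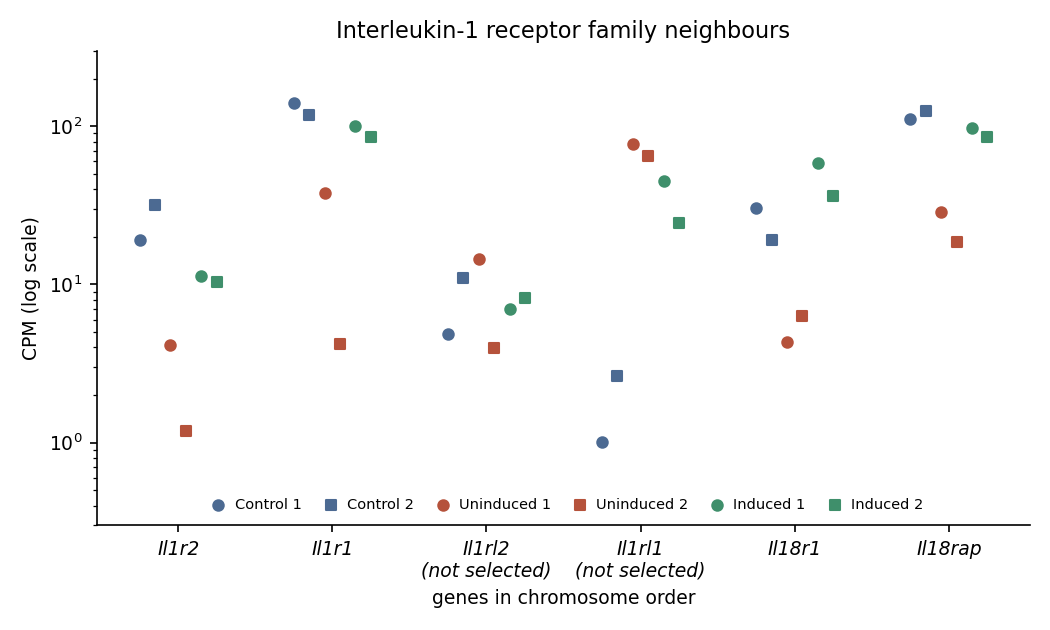
CPM on a log scale of 6 neighbouring interleukin 1 receptor family genes in chromosome order, with 1 point per library. Circles are replicate 1 and squares replicate 2. The selected Il1r2, Il1r1, Il18r1 and Il18rap have their lowest points in the uninduced libraries, and Il1rl1 its highest, at 64.9 and 77.3 CPM.

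Other neighbouring pairs of selected genes were Gpr171 and P2ry14 on chromosome 3, Bend5 and Spata6 on chromosome 4, and the Hoxa pair on chromosome 6; with the pairs above that makes 5 adjacent pairs, and 16 genes had another selected gene's start within 200 kb. Gpr171, a receptor found on immune cells, was at 135 and 100.4 CPM in Control, 26.3 and 14.1 CPM without RBPJ and 86.7 and 103 CPM after induction. P2ry14, the receptor for UDP-glucose, was at 27.1 and 21.3 CPM, 4.51 and 2.47 CPM, and 29.9 and 23.8 CPM. After induction both overlapped Control.

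Genes of antigen-receptor signalling returned to a median of 64.2% of Control. Lax1, an adaptor that dampens lymphocyte receptor signals, was at 166 and 149 CPM in Control, 7.85 and 14.6 CPM without RBPJ and 103 and 88.0 CPM after induction. Pag1, which recruits the kinase Csk to the membrane, lost less, from 164 and 176 CPM to 52.6 and 43.7 CPM, and was at 125 and 97.5 CPM after induction. Grap2, the adaptor GADS that links LAT to SLP-76, was at 41.1 and 48.2 CPM, 4.51 and 10.6 CPM, and 35.5 and 30.8 CPM. These 3 did not reach the Control range.

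Cd247, the zeta chain of the T-cell receptor, had the lowest return of all 165 genes. It was at 12.9 and 49.1 CPM in Control, 0 and 2.66 CPM without RBPJ and 7.93 and 7.47 CPM after induction, 24.8% of the Control mean. Trat1, an adaptor of the T-cell receptor complex, was at 5.10 and 10.4 CPM, 0 and 0.824 CPM, and 4.87 and 6.67 CPM. In both genes Control replicate 2 was at least 2 times as high as Control replicate 1, as it was in 8 of the 165 (Cd247, Trat1, Cish, Traf1, Nsg2, Cass4, Ldhb and Rrad), 4.85% beside 2.05% of the 9135 genes. Control replicate 2 is also the library with the 884 CPM of later thymocyte markers. The part of those cells was not tested.

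The signalling enzymes and inhibitors include negative feedback genes of cytokine and kinase pathways. Of these 12 genes, 10 stayed under both Control libraries after induction. So did 106 of all 165 selected genes and 24.5% of the 9135 protein-coding genes. Pim1, a serine/threonine kinase that cytokines induce, was at 363 and 403 CPM in Control, 95.5 and 54.2 CPM without RBPJ and 201 and 186 CPM after induction, 50.5% of Control. Cish, a suppressor of cytokine signalling, was at 36.4 and 79.8 CPM, 2.16 and 9.25 CPM, and 18.5 and 23.0 CPM. Dusp2, a phosphatase of MAP kinases, was at 243 and 187 CPM, 21.8 and 47.2 CPM, and 104.5 and 94.4 CPM, just inside the limit for the induced libraries. The exceptions were Rgs3 and Rasal1, which switch off G proteins and Ras and overlapped Control.

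Smad7, the inhibitor of TGF-beta receptors, was at 208 and 132 CPM in Control, 9.22 and 22.7 CPM without RBPJ and 104 and 97.8 CPM after induction. Ldlrad4, another inhibitor of TGF-beta signalling, was at 118 and 90.8 CPM, 14.5 and 7.05 CPM, and 72.4 and 68.8 CPM. Deptor, an inhibitor of mTOR, was at 221 and 191 CPM, 52.6 and 22.6 CPM, and 139 and 103 CPM. The cyclic nucleotide phosphodiesterases Pde3b and Pde7a, which break down cyclic AMP, kept 12.2% and 22.5% of Control without RBPJ and stood at 51.9% and 66.1% after induction. None of these 5 reached its Control range.

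Of 8 genes for G protein-coupled receptors, 4 overlapped Control after induction and 4 lay under it, beside 50 and 106 of all 165. Among the 9135 protein-coding genes 24.5% lay under it. Gpr132, a lysophospholipid-sensitive receptor of lymphocytes, was at 56.1 and 78.5 CPM in Control, 9.22 and 8.79 CPM without RBPJ and 42.6 and 40.4 CPM after induction. P2ry10, a lysophosphatidylserine receptor, kept 21.8% of Control without RBPJ and stood at 65.5% after induction. Sstr2, a somatostatin receptor, kept 6.84% of Control, the least of the 8, and stood at 53.8%. Tbxa2r, the thromboxane A2 receptor, was at 22.7 and 25.4 CPM in Control, 5.49 and 1.47 CPM without RBPJ and 16.9 and 12.5 CPM after induction.

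Lymphocyte surface genes came back nearer to Control, with a median of 94.6%. The 6 genes ranged from 65.5% to 135%, with 2 below both Control libraries and 4 overlapping. Among the 9135 protein-coding genes 24.5% were below and 20.3% above. Cd7, a marker of T and natural killer cells, was at 37.9 and 21.1 CPM in Control, 1.57 and 3.39 CPM without RBPJ and 42.9 and 36.5 CPM after induction, and Cd96, a receptor for the poliovirus receptor, was at 24.6 and 32.9 CPM, 3.92 and 3.39 CPM, and 26.8 and 25.5 CPM. Lag3, an inhibitory receptor related to Cd4, was at 14.7 and 12.6 CPM, 0.981 and 0.275 CPM, and 13.0 and 13.9 CPM. The induced libraries of all 3 overlapped Control. Of the 5 cytokine and TNF family genes, 2 lay below both Control libraries after induction, 2 lay above both and 1 overlapped. The shares of the 9135 genes were again 24.5% below and 20.3% above. Ltb, which encodes lymphotoxin beta, was at 18.8 and 20.7 CPM, 0 and 3.85 CPM, and 21.3 and 25.3 CPM, and the chemokine gene Ccl4 at 28.8 and 17.1 CPM, 4.71 and 4.76 CPM, and 29.2 and 30.2 CPM, both above Control after induction.

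Receptors for growth factors were low in counts save one. Pdgfrb, a receptor for platelet-derived growth factor best known from pericytes and other mesenchymal cells, was at 249.5 and 199.8 CPM in Control, 49.8 and 23.3 CPM without RBPJ and 234 and 199.9 CPM after induction, which overlapped Control. Of 12 thymic stromal markers, Pecam1, an endothelial adhesion molecule also made by blood cells, was at 163 and 154 CPM, 95.9 and 74.7 CPM, and 155 and 149 CPM, and Ccl25 at 34.3 and 29.2 CPM, 17.1 and 18.7 CPM, and 27.4 and 20.6 CPM. The other 10, with the mesenchymal Pdgfra, Col1a1 and Col3a1, were at or under 7.34 CPM in every library. Fgfr1 and Ephb6, an FGF receptor and a kinase-dead Eph receptor of T cells, kept 12.2% and 7.36% of Control and stood at 55.3% and 59.9%.

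Lrp1, a large endocytic receptor for lipoproteins, had replicates that lay close together. It was at 225 and 226 CPM in Control, 22.6 and 25.8 CPM without RBPJ and 193 and 177 CPM after induction, 82.0% of Control. Abcg1, which exports cholesterol, was at 106 and 123 CPM, 32.9 and 26.3 CPM, and 87.2 and 76.2 CPM, and Npc1, which moves cholesterol out of lysosomes, kept 22.6% and stood at 74.9%. Induced libraries of these 3 lay under Control.

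Bcl2l11, the proapoptotic BH3-only protein BIM, was at 133 and 262 CPM in Control, 15.7 and 38.9 CPM without RBPJ and 103 and 87.4 CPM after induction, 48.2% of Control. Its relative Bcl2l14 was at 19.2 and 15.4 CPM, 1.96 and 2.47 CPM, and 12.4 and 11.1 CPM. Of the innate sensors, Nod1, which recognizes a peptidoglycan fragment, was at 22.0 and 22.2 CPM, 3.73 and 3.57 CPM, and 28.7 and 27.7 CPM, above both Control libraries. Tlr7, a receptor for single-stranded RNA, stood at 138% of Control after induction with groups that overlapped. Of the 5 innate sensors, 3 lay below both Control libraries, where 24.5% of the 9135 protein-coding genes did. The synaptotagmin-like genes Sytl1, Sytl3 and Sytl4, whose products bind Rab27, kept 9.29% to 12.2% of Control.

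The deepest losses were mostly in genes with few counts. Igf2bp3, an RNA-binding protein of fetal cells, was at 13.5 and 16.6 CPM in Control, 0 and 0.458 CPM without RBPJ and 7.57 and 7.56 CPM after induction. Evpl, the cell envelope protein envoplakin, was at 110 and 92.4 CPM, 2.35 and 4.58 CPM, and 47.7 and 58.6 CPM, the deepest loss among genes over 50 CPM. Slc35d3, a solute carrier family member, was at 57.8 and 47.8 CPM, 4.31 and 1.37 CPM, and 76.0 and 85.0 CPM, above both Control libraries. In 15 genes 1 uninduced library held no count, and in 0 genes did both.

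In the ranking by the lower Control over the higher uninduced library Igf2bp3 led with a ratio of 29.4, followed by Evpl with 20.2, Hsf2bp with 18.5, Map3k19 with 13.7 and Lag3 with 12.9. Vash1, Rundc3b and Slc35d3 came next, with 11.5, 11.1 and 11.1. Hsf2bp, Map3k19, Vash1 and Rundc3b had Control levels under 11 CPM. At the other end of the return, Cass4, a Cas scaffold protein, was at 7.27 and 28.0 CPM in Control, 2.16 and 1.10 CPM without RBPJ and 7.03 and 3.91 CPM after induction, and Traf1, an adaptor of TNF receptors, stood at 38.6% of Control. Among the high returns, Zfp935 stood at 147% and Hectd2 at 143%, and with Smim24 at 113% they complete the 9 genes above both Control libraries.

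Other abundant genes, outside the roles except Prkch, followed the same course. Marcksl1, a protein kinase C substrate at the actin cytoskeleton, was at 277 and 421 CPM in Control, 52.8 and 40.8 CPM without RBPJ and 182 and 167 CPM after induction, and its relative Marcks was at 66.0 and 73.4 CPM, 21.8 and 19.2 CPM, and 56.4 and 65.5 CPM. Prkch, the protein kinase C isoform eta, was at 107 and 106 CPM, 34.7 and 30.9 CPM, and 80.2 and 73.9 CPM. None of the 3 reached its Control range. Nabp1, a single-stranded DNA-binding protein, was at 126 and 196 CPM, 24.5 and 30.0 CPM, and 79.1 and 71.0 CPM, and Drc7, known from the regulatory complex of cilia, at 188 and 108 CPM, 9.22 and 12.0 CPM, and 99.4 and 80.9 CPM. Tert, the catalytic subunit of telomerase, was at 13.0 and 9.23 CPM in Control, 0 and 1.92 CPM without RBPJ and 7.48 and 7.03 CPM after induction. The 77 genes in no role kept a median of 15.3% of Control without RBPJ and stood at 75.5% after induction. Of these, 49 were under, 3 above and 25 overlapping Control, where 24.5% of the 9135 protein-coding genes were under and 20.3% above.

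RBPJ binds DNA at a short core, TGGGAA. It was searched on both strands in RefSeq promoter windows (GRCm38.p6, 250 bases before to 50 after a gene's start), with the longer GTGGGAA, which contains it. Only 113 of the 165 genes (68.5%) had a window by symbol, under the 80% needed, so the comparison of the set with all promoters is void. The core was in 33 of those 113 (29.2%) and in 24.1% of 16387 windows of protein-coding genes. GTGGGAA was in 8 of the 113 (7.08%) and in 6.24% of the 16387. The 250 bases before the start of 4 genes described above are shown with each core match in capitals, which read TTCCCA where the match lies on the other strand. All 4 were picked from genes whose window held a core match, so its presence in them is no result. Among those genes, Slc35d3 was taken for its deep loss and Lrp1 for its close replicates. Tbxa2r and Trat1 were taken for matches to the longer form.
Slc35d3: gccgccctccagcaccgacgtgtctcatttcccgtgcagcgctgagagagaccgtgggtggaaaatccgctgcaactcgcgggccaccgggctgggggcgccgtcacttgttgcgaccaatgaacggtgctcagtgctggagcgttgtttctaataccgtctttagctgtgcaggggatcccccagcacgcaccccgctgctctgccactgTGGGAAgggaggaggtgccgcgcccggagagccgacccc
Lrp1: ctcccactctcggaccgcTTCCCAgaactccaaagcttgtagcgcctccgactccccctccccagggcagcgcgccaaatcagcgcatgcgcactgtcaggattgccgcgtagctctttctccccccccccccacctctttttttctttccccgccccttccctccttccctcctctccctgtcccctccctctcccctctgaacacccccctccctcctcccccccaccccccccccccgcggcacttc
Tbxa2r: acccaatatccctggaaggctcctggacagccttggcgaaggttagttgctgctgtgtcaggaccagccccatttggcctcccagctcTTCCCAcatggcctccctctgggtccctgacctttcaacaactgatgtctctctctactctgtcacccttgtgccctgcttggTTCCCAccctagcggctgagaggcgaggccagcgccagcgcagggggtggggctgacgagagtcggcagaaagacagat
Trat1: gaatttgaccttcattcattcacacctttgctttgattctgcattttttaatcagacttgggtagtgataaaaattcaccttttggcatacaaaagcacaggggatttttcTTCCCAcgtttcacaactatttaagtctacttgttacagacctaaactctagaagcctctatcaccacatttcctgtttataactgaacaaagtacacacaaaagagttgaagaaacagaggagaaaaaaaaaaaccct

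The 4 stretches lie at chr10:19851460-19851709 (minus strand), chr10:127621149-127621398 (minus strand), chr10:81328453-81328702 (plus strand) and chr16:48772063-48772312 (minus strand) and overlap no annotated exon. Slc35d3 holds 1 core match, Lrp1 1, Tbxa2r 2 and Trat1 1. Those of Slc35d3, Tbxa2r and Trat1 also read GTGGGAA. A match describes the letters and does not show binding.

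Genes of the same pathways outside the 165 were tested in the same fit. They stand outside because they missed a condition of the rule or were barred by name, so their counts are a description. Notch1, Notch3, Tox, Lck and Fasl met every condition and were left out by name alone. Of 27 other T-lineage transcription factors tested, 7 were lower without RBPJ (Tcf7, Tox, Runx3, Sox4, Sox13, Nfatc1 and Nfatc2) and 1 higher (Zfpm1; 5 without uninduced replicate 1), with a median log2 fold change of -0.57 beside -0.018 over all genes tested, and 6 were higher after induction than without RBPJ (all of the 7 but Sox13). Leaving out a library changed these counts, with the fewest lower without Control replicate 1 and the fewest higher without either induced library. In the fit of all 6 libraries 0 were lower after induction than without RBPJ. Without uninduced replicate 1 some were, so that library decides the count in this direction. Tcf7 was barred by name too, but also missed the induced limit, at 366 and 510 CPM in Control, 14.7 and 22.5 CPM without RBPJ and 179 and 203 CPM after induction. Sox4, a factor of early progenitors, was at 448 and 320.1 CPM in Control, 152 and 111 CPM without RBPJ and 387 and 481 CPM after induction, for edgeR log2 fold changes of -1.46 (SE 0.227; adjusted p = 0.00790) and then 1.71 (SE 0.229; adjusted p = 0.00801), past the threshold in every alternative. Nfatc2, a calcium-regulated factor, was at 54.0 and 43.3 CPM, 14.9 and 12.9 CPM, and 50.2 and 50.1 CPM, with edgeR values of -1.70 (SE 0.268; adjusted p = 0.00823) and 1.81 (SE 0.268; adjusted p = 0.0136). The first Nfatc2 call was lost without Control replicate 1 (adjusted p = 0.0623 by edgeR), and both were lost with the 4 compared libraries alone (0.0612 and 0.0563).

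Of 31 other genes of T-cell receptor signalling tested, 11 were lower without RBPJ (3 without Control replicate 2, and 16 without uninduced replicate 2 or induced replicate 2), with a median log2 fold change of -1.38 beside -0.018. After induction 3 were higher than without RBPJ, Lck, Lcp2 and Cd6 (9 without either uninduced library). Lcp2, the adaptor SLP-76 to which the Grap2 product binds, was at 184 and 186 CPM in Control, 97.7 and 39.6 CPM without RBPJ and 161 and 176 CPM after induction. Of 24 other cytokine, chemokine and homing receptors tested, 5 were lower without RBPJ (among them Ccr9, Itgb7, Il4ra and Tgfbr1) and 0 higher. After induction 2 were higher than without RBPJ (1 of them Itgb7). Leaving out a library moved these counts. Calls higher without RBPJ then appeared in some fits, with the most without uninduced replicate 1. Ccr9, the receptor for the thymic chemokine CCL25, was at 18.5 and 47.1 CPM, 1.77 and 1.65 CPM, and 9.74 and 6.94 CPM, with an edgeR log2 fold change of -4.09 without RBPJ (SE 0.549; adjusted p = 0.00422) that no alternative ended.

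The lists of Notch pathway genes share no gene with the 165, in part by construction, since the rule bars Notch1, Notch3 and Hes1. Hes1 also missed the induced limit, at 134 and 101 CPM in Control and 54.2 and 43.5 CPM after induction. Of 26 tested ligands, receptors and processing genes 3 were lower without RBPJ (Jag2, Notch1 and Notch3; 1 without Control replicate 2) and 1 higher (Psen2; 0 without Control replicate 2, 2 without uninduced replicate 2). Of 16 nuclear complex genes 2 were lower, Rbpj and Maml3, and both were higher after induction (1 without either induced library, and 4 without uninduced replicate 1). Maml3, a Mastermind coactivator, was at 253 and 220.3 CPM in Control, 102 and 46.6 CPM without RBPJ and 177 and 166 CPM after induction. Of 12 targets 2 were lower, Hes1 and Notch3 (1 without Control replicate 2, 6 without uninduced replicate 2), 1 was higher (Igf1r; 0 without either Control library or uninduced replicate 1), and 3 were higher after induction, those and Nrarp (1 without either induced library, 6 without uninduced replicate 2). Of 16 apoptosis genes, Fasl and Mcl1 were lower without RBPJ (1 without either Control library). Of 10 genes of receptor gene recombination, Dntt and Xrcc6 were lower without RBPJ (1 without Control replicate 1) and Dntt higher after induction (2 genes without uninduced replicate 2).

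The thresholds cut a continuous range. Just inside the uninduced limit lay Slc12a7, a potassium-chloride cotransporter, with its higher uninduced library at 33.32% of the lower Control, and just outside lay Spata13 at 33.34%, Antxr2 at 33.4% and Arhgef5 at 33.6%. Just inside the induced limit lay Aox1 at 50.02% of the lower Control, and just outside lay Carmil2 at 49.9%, Astl at 49.2% and Csrnp1 at 49.1%. At the Control minimum, Hsf2bp and Gpc2 had 5.08 CPM and Tmtc2 had 5.10 CPM, while Ccdc126 had 4.87 CPM and Ccnjl and Actn2 had 4.71 CPM. A further 66 genes met the Control and uninduced conditions but had an induced library under 50% of the lower Control; they summed to 4115 and 4680 CPM in Control, 325 and 457 CPM without RBPJ and 1688 and 1389 CPM after induction. With the rule applied to TMM-scaled totals 152 genes met it, 134 of them among the 165, and without uninduced replicate 1 or uninduced replicate 2 the numbers were 458 and 327.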

How the data were processed

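RNA of sorted DN1a/b thymus cells was sequenced in 6 libraries, 2 in each of 3 groups named by the sample titles. Each deposited file holds the authors' whole-number counts per Ensembl gene, 47729 genes, without normalization. Per the submitters' processing notes the tools were HISAT2, StringTie and HTSeq, with the build mm10, and with annotation release and strand setting not given in the sources used here. Reads of overlapping or near-identical genes can therefore be shared.

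Names, types and coordinates came from GENCODE M21 on GRCm38 (47224 IDs matched). CPM used each file's total count. Tests used edgeR 4.0.16 in R 4.3.3 (filterByExpr, minimum count 10 and minimum total 15; TMM factors 0.824 to 1.13; quasi-likelihood test, 3 residual degrees of freedom, Benjamini-Hochberg threshold 0.05). All 165 selected genes passed the filter. SE of an edgeR log2 fold change was calculated back from the test, as its absolute value over the square root of the F statistic. The fit assumes 1 spread for all groups, but chi-square per degree of freedom between replicates was 20.6 in Control, 54.1 in uninduced and 16.4 in induced libraries. Alternatives were DESeq2 1.42.0, its size factors, no filter, the 4 compared libraries, a replicate block, each library left out, and other limits and totals for the rule.

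The members, 16 lists with 282 entries and the roles were chosen with earlier results of these data known. Named were Rbpj, members in a list, those highest in Control, lost most, or returning most or least, those beside a threshold, list genes with the smallest p, and members by textbook role. Clone-named genes were counted, not named, and a few genes of the lists and roles are not reported here.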

Additional observations from a re-analysis of the deposited data

How the results depend on the processing

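Each group has 2 libraries, so 1 library can decide a call. The count of genes called for uninduced against Control was 985, and it was 1675 with DESeq2, 1540 without a filter, 219 with the 4 compared libraries and 445 to 2000 with a library left out. For induced against uninduced it was 357, with 1033, 989 and 71 under the same alternatives and 171 to 1374 with a library left out, and for induced against Control 34, with 212, 304 and 177, and 30 to 337. With the replicate block the counts were 1147, 534 and 108. Differences between replicates 1 and 2 were not correlated between groups (correlations of -0.041, 0.025 and 0.011). Whether same-numbered libraries belong together is not given in the labels. These correlations cannot decide it, because differences of single libraries can mask a shared one. Of the 165 genes, 59 instead of 138 were called lower without RBPJ with the 4 compared libraries, where 0.816% of all genes were (92 to 157 with a library left out, beside 1.22% and 5.54% of all). Called higher after induction were 135 without a filter (1.89% of all) and 26 with the 4 compared libraries (0.451%) instead of 88 (62 to 141 with a library left out, beside 0.743% and 4.53%). Called lower after induction than in Control were 4 with DESeq2 (0.328% of all), 4 without a filter (0.16%) and 3 with the 4 compared libraries (0.213%) instead of 0 (0 to 8 with a library left out). The rule itself gave 97 genes with an uninduced limit of 25%, 386 with 50%, 34 with the lower Control as the induced limit, and 174 to 458 with a library left out. Over the bases before the start alone, the core was in 26.5% of the promoter windows found for the selected genes. It was in a smaller share of the windows of all protein-coding genes. Too few of the selected genes had a window, so this comparison is void as well. The cause of these shifts was not tested, except that the fits of 4 libraries use fewer samples. No fold change of a single gene tried here changed its direction. Only some of the named genes were tried, and most of them were among the 165. The rule had set the direction of those, so this is a description. Genes under 10 CPM rest on few counts in the shallowest libraries.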
